A study of Mus musculus with 12 samples.

Results

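The genes described here are those of fatty acid uptake, activation, mitochondrial transfer, beta-oxidation and triglyceride lipolysis, measured in the calf muscle of diabetic mice. A list of 35 genes was drawn up by function, and a gene counted as measured where a probe set of the arrays carried its symbol alone. Of the 35 members, 31 were measured among 23185 genes with a single symbol, and all 31 entered the tests because no filter on dim genes was used. Fabp3, Cpt1b, Hadhb and Acsl1 were not analysed here. The 31 fell into 9 roles: 4 genes of uptake and binding, 4 acyl-CoA synthetases, 4 of the carnitine shuttle, 4 acyl-CoA dehydrogenases, 5 hydratases, hydroxyacyl dehydrogenases and thiolases, 3 auxiliary enzymes, 3 of electron transfer, 1 thioesterase and 3 of lipolysis.

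Muscle takes up fatty acids through the membrane protein CD36 and transport proteins, and also releases them from its own triglyceride droplets. Acyl-CoA synthetases trap them as acyl-CoA, the carnitine shuttle carries long-chain acyl groups into mitochondria, and a repeating cycle of dehydrogenation, hydration, dehydrogenation and thiolysis shortens them to acetyl-CoA while flavoproteins pass the electrons to the respiratory chain. In diabetic muscle the pathway is of interest because an excess of lipid accompanies insulin resistance. PPAR and ERR nuclear receptors, with the coactivator PGC-1alpha, are known inducers of many of its genes.

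All animals were of the strain BKS.Cg-Dock7m +/+ Leprdb/J at 12 weeks of age. These db/db mice lack the signalling form of the leptin receptor and are obese and diabetic, and no lean or virus-free animals were among the arrays. Every animal received 4000000000 plaque-forming units of adenovirus that carried short hairpin RNA (shRNA) meant to lower a chosen transcript, and tissue was taken 1 week later. In the control group all of it was control shRNA virus. The LCN13 group received 2000000000 units of LCN13 virus with as many of control virus, and the TSC22D4 group 2000000000 units of TSC22D4 virus with as many of control virus. The TSC22D4+LCN13 group received 2000000000 units of each target virus and no control virus. Each group given a target virus thus received less control virus than the control group. In a difference from control, more target virus and less control virus cannot be told apart. TSC22D4 is a transcriptional regulator and LCN13 a secreted lipocalin. Of 7 animals treated in each group, the submitters chose 3 as representative for RNA from gastrocnemius, 1 array each. The arrays are named by animal number: control 18, 19 and 20, LCN13 21, 22 and 23, TSC22D4 25, 26 and 27, and TSC22D4+LCN13 29, 30 and 32.

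Values are log2 levels as deposited, and a difference is a difference of group means on that scale. The lowest value in the table was 4.78, the highest 14.09 and the median of every array 5.45. The tissue label fits its markers, since fast fibre genes and 8 genes of muscle identity had mean log2 levels between 13.64 and 13.75 on every array. Of the targeted genes, Tsc22d4 had log2 levels between 6.43 and 7.01, with a difference from control of 0.24 (SE 0.121, adjusted p = 0.619) on the arrays labelled TSC22D4 and of 0.23 (adjusted p = 0.337) on those labelled TSC22D4+LCN13. Lcn13, now named Obp2a, had log2 levels from 4.9 to 4.97, near the lowest value of the table. A lower muscle transcript of either target is therefore not shown here, and groups are named by the virus given. In tissue, fewer cells of a type and less RNA per cell cannot be told apart. The threshold was an adjusted p of 0.05 from limma over all 23185 genes. A p-value here sets a difference against an error that limma estimated from the spread within groups over all arrays. The 3 animals in a group were chosen as representative, so this spread may not be that of all treated animals. Arrays of different animals correlated between 0.99 and 0.998.

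Across the 6 comparisons made, 3 members passed, each once. Cd36, the fatty acid translocase, was higher under LCN13 shRNA than under control. Cpt1a, an outer mitochondrial carnitine palmitoyltransferase, was higher under TSC22D4+LCN13 shRNA than under control. Acaa1a, a peroxisomal thiolase, was lower under TSC22D4+LCN13 than under LCN13 shRNA. The heat map of the 31 members shows how the levels moved from array to array. The span of the 4 group means was under 0.2 on the log2 scale for 17 of 31, with a median of 0.185.

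**Figure D1:**
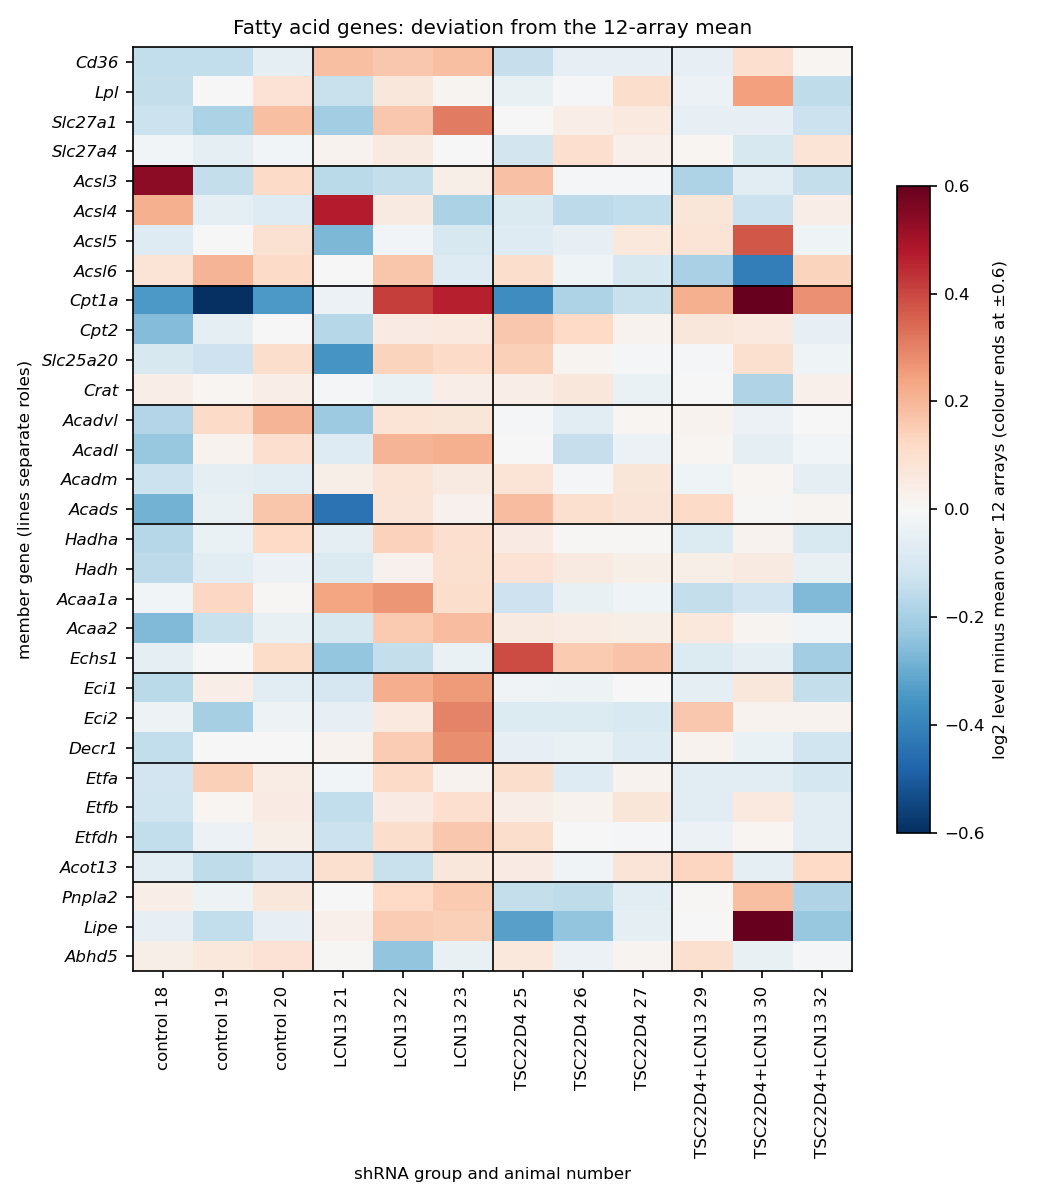
Deviation of the log2 level from the mean over 12 arrays for each of 31 members (rows, grouped by role) on each array (columns, grouped by shRNA), with red higher and blue lower and the colour ending at 0.6. Cpt1a shows the widest span of group means, 0.935, and most genes of the mitochondrial cycle are blue in control animal 18 and in LCN13 animal 21.

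The promoter windows of the 3 genes that passed are shown because nuclear receptor motifs are known in promoters of this pathway. The sequences are RefSeq windows of 300 bases, 250 before and 50 after the start of transcription, in the build GRCm38.p6 and in the direction of transcription. Capitals mark the nuclear receptor element AGGTCA and the GC box GGGCGG on either strand (reverse complements TGACCT and CCGCCC). The windows are chr5:17835847-17836146 on the minus strand for Cd36, chr19:3323051-3323350 on the plus strand for Cpt1a and chr9:119341044-119341343 on the plus strand for Acaa1a. The annotated genes begin upstream of these windows, at 17888959 for Cd36, 3322326 for Cpt1a and 119341028 for Acaa1a. Each window thus lies at a start that is not the outermost of its gene, and other starts were not examined.
Cd36: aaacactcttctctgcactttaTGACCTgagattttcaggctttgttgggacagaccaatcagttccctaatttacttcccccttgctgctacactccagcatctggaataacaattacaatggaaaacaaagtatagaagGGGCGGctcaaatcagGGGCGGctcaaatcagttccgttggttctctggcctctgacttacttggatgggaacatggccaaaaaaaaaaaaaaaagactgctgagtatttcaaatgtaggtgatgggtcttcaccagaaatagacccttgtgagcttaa
Cpt1a: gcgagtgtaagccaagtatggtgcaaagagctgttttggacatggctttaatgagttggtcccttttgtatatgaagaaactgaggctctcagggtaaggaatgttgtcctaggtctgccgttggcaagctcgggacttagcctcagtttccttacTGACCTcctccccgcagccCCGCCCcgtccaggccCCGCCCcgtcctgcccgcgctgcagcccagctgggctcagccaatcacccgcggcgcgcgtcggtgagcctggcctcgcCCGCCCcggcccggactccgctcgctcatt
Acaa1a: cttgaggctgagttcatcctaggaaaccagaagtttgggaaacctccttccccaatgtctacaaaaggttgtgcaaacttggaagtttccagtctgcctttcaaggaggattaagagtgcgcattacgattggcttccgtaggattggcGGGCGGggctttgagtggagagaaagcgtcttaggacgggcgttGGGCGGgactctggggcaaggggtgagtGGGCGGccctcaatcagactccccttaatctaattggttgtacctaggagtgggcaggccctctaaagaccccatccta
This element lay at -228 in Cd36 and at -94 in Cpt1a, counted in bases from the start to the first base of the match. Acaa1a held no match to it in this window. GC boxes lay at -109 and -93 in Cd36, at -75, -59 and 20 in Cpt1a, and at -101, -57 and -29 in Acaa1a.

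Windows were taken for 26 of the 31 members, 31 windows in all. Windows on chromosome 18, where Acaa2 lies, were left out for the members but not from the count of all windows. AGGTCA was found in 7 of the 31 windows (22.6%), against 16.3% of all 32851 windows. The genes were Cd36, Cpt1a, Acadm, Acadvl, Echs1, Abhd5 and Acsl6. GGGCGG was in 25 windows (80.6%) against 35.7% of all, and CCAAT in 14 (45.2%) against 37.4%. A direct repeat of AGGTCA spaced by 1 base (DR1), the form that PPAR and RXR dimers bind, was in 0 of the 31 windows and in 0.0396% of all windows. A match of letters is a description and not a binding site, and its lack in a window says nothing about the factor. All motifs were searched on both strands, and the repeat contains the single element.

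Among the 4 genes of uptake and binding, Cd36 passed. Its log2 levels were 12.39, 12.39 and 12.48 on the control arrays, 12.72, 12.70 and 12.72 on the LCN13 arrays, 12.40, 12.49 and 12.49 on the TSC22D4 arrays and 12.49, 12.64 and 12.55 on the TSC22D4+LCN13 arrays. The 3 LCN13 arrays were above the other 9, with an SD of 0.0111. The difference of LCN13 from control was 0.30 on the log2 scale (SE 0.043, 95% interval 0.20 to 0.39, 1.23-fold, adjusted p = 0.0151). The gene did not pass without control animal 18 (adjusted p = 0.0531), LCN13 animal 21 (0.0636) or LCN13 animal 23 (0.0548). Cd36 marks capillary endothelium and adipocytes as well as muscle fibres. Endothelial and adipocyte marker genes, 8 and 7 measured, had 0 members past the threshold for LCN13 against control, where 0.85% of all genes passed. The difference was above 0 for 7 of 7 adipocyte markers (median 0.265) and for 5 of 8 endothelial markers (median 0.062). The groups did not overlap, with LCN13 higher, for 2 adipocyte markers and 1 endothelial marker. Among all genes 51.2% had a difference above 0 and 9.74% were higher without overlap. The adipocyte list score of the LCN13 arrays was 0.12, 0.0675 and 0.0707 against 0.0492, -0.37 and -0.0656 in control, and the part of these cells in the result was not tested.

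Under TSC22D4 shRNA the Cd36 difference from control was 0.0435 (SE 0.043, interval -0.05 to 0.14). Under TSC22D4+LCN13 it was 0.14 (interval 0.04 to 0.24, adjusted p = 0.0993), with all 3 arrays above the highest control array. Set directly against LCN13 shRNA the group with both viruses was at -0.16 (adjusted p = 0.0744), which passed without animal 30 (-0.20, adjusted p = 0.0292). Lpl, the lipase that frees fatty acids from circulating triglyceride, had the narrowest span of group means among the 31 members, 0.0377, with log2 levels from 12.25 to 12.65 over the 12 arrays. Slc27a1 and Slc27a4, fatty acid transport proteins, did not pass in any comparison. Slc27a1 ranged from 9.66 to 10.18 and Slc27a4 from 6.02 to 6.23, a level for which no detection call was available.

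The 4 measured acyl-CoA synthetases, which activate fatty acids, did not pass in any comparison. Acsl5 had the smallest p of the role, with log2 levels of 5.73, 5.81 and 5.90 in control, 5.54, 5.79 and 5.71 under LCN13, 5.73, 5.76 and 5.87 under TSC22D4 and 5.89, 6.18 and 5.78 under both shRNAs. The LCN13 and TSC22D4+LCN13 arrays overlapped, and their difference was 0.27 (SE 0.0998, adjusted p = 0.165). Acsl3 and Acsl6 had negative differences from control under both shRNAs, of -0.30 (adjusted p = 0.271) and -0.29 (adjusted p = 0.213). For Acsl3 a single array was apart, control animal 18 at 6.64 against 5.96 and 6.22 on the other control arrays. Acsl4, which prefers arachidonic acid, was highest in LCN13 animal 21, at 8.93, while the other arrays lay between 8.27 and 8.67. Acsl3 and Acsl5 lay close to the low end of the table, and their levels were not shown to be above background.

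Of the carnitine shuttle, Cpt1a passed. It encodes the isoform of carnitine palmitoyltransferase 1 known from liver, whereas the isoform typical of muscle is encoded by Cpt1b. Its log2 levels were 7.76, 7.32 and 7.76 in control, 8.07, 8.52 and 8.57 under LCN13, 7.73, 7.92 and 7.97 under TSC22D4 and 8.32, 8.94 and 8.38 under TSC22D4+LCN13. All 6 arrays of animals given LCN13 virus were above all 6 arrays of the other animals. Against control the difference under both shRNAs was 0.93 on the log2 scale (SE 0.195, interval 0.50 to 1.37, 1.91-fold, adjusted p = 0.0313). Under LCN13 shRNA it was 0.77 (interval 0.34 to 1.21, adjusted p = 0.118), and under TSC22D4 shRNA 0.26 (interval -0.18 to 0.70, adjusted p = 0.787). These 3 values share the control arrays. The direct difference of both shRNAs from LCN13 was 0.16 (interval -0.27 to 0.60) and from TSC22D4 0.67 (interval 0.24 to 1.11, adjusted p = 0.29).

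The call of Cpt1a under both shRNAs was lost without control animal 18 (adjusted p = 0.0575), 19 (0.085) or 20 (0.0686), without TSC22D4+LCN13 animal 30 (difference 0.74, adjusted p = 0.0538) or 32 (0.059). Hepatocyte marker genes, whose transcripts appear on these muscle arrays, moved with it in part. The list score of 9 such genes, the mean deviation from their 12-array means, was 1.06 in LCN13 animal 22, 0.44 in LCN13 animal 23 and 0.55 in TSC22D4+LCN13 animal 30, the 3 arrays with the highest Cpt1a. On the other 9 arrays it lay between -0.44 and 0.0871. The mean log2 level of the 9 genes ranged from 5.9 to 6.42 in control, 6.27 to 7.39 under LCN13, 5.93 to 6.11 under TSC22D4 and 5.89 to 6.88 under both shRNAs. Alb, the albumin gene, had log2 levels of 11.57, 10.94 and 10.87 on the 3 arrays just named. On the other 9 arrays Alb ranged from 7.01 to 10.12. The value of 10.12 was that of control animal 19, the array with the lowest Cpt1a, 7.32. TSC22D4+LCN13 animals 29 and 32 had hepatocyte scores of -0.26 and -0.44 and Cpt1a levels of 8.32 and 8.38, above every control array. Of the 9 markers 0 passed in any comparison.

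Macrophage markers moved with the same comparison. Of 7 measured, 2 passed as higher under both shRNAs than under control, where 1.72% of all genes passed as higher. They were Mrc1, a mannose receptor, at 0.81 (SE 0.149, adjusted p = 0.02) and Adgre1, which encodes F4/80, at 0.49 (SE 0.112, adjusted p = 0.0405). Mrc1 was lost without any 1 control array (adjusted p between 0.0562 and 0.0575). Adgre1 was lost on leaving out any 1 of 10 arrays, all but LCN13 animal 21 and TSC22D4+LCN13 animal 29 (adjusted p between 0.0542 and 0.113). Animal 30, the array with the highest Cpt1a, had the highest macrophage score, 0.69, and the highest adipocyte score, 0.93. In animals 29 and 32 the macrophage scores were 0.14 and 0.13 and the adipocyte scores -0.12 and -0.0746. The parts of liver, macrophage and adipocyte transcripts in the Cpt1a difference were not tested.

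The other genes of the shuttle did not pass. Cpt2, the inner membrane transferase, had log2 levels of 10.47, 10.67 and 10.73 in control and 10.89, 10.85 and 10.75 under TSC22D4. These groups did not overlap, and the difference was 0.21 (adjusted p = 0.448). Slc25a20, the carnitine-acylcarnitine carrier, ranged from 9.85 to 10.35 with its lowest value in LCN13 animal 21. Crat, which buffers acetyl-CoA as acetylcarnitine, ranged from 12.80 to 13.05.

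**Figure D2:**
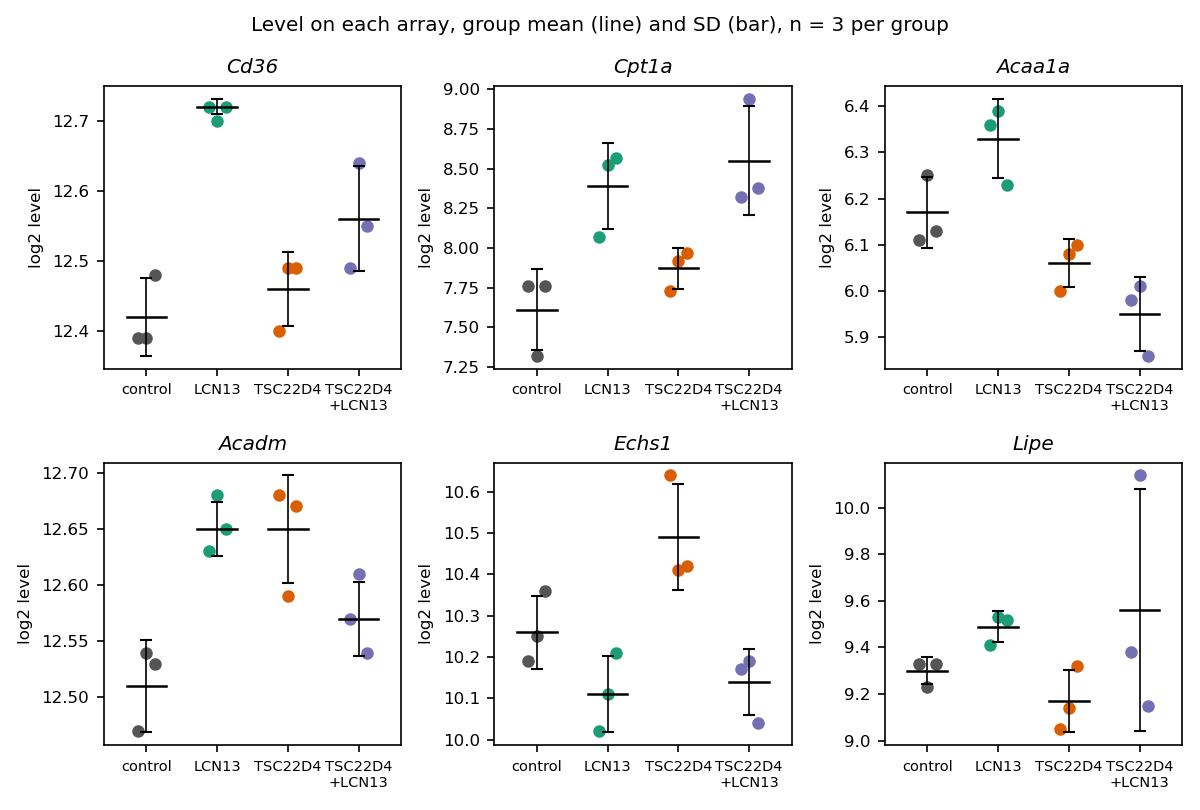
Log2 level of 6 members on each of 12 arrays (points), with the mean (line) and SD (bar) of 3 arrays per shRNA group, each panel with its own vertical range that does not start at 0. Cd36 is highest in the 3 LCN13 arrays, Cpt1a in the 6 arrays of animals given LCN13 virus, and Lipe is raised in 1 array, TSC22D4+LCN13 animal 30, at 10.14.

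The 4 acyl-CoA dehydrogenases carry out the first step of the cycle on very long, long, medium and short chains, and none passed. Acadm, the medium-chain enzyme, had the smallest p of them. Its log2 levels were 12.47, 12.54 and 12.53 in control, 12.63, 12.68 and 12.65 under LCN13, 12.68, 12.59 and 12.67 under TSC22D4 and 12.57, 12.61 and 12.54 under both shRNAs. Each single shRNA group was above all control arrays, by 0.14 (adjusted p = 0.0927 for LCN13 and 0.152 for TSC22D4), whereas the group with both overlapped control at 0.0618. The interaction, that is the difference of both shRNAs and LCN13 minus the difference of TSC22D4 and control, was -0.21 (SE 0.0453, adjusted p = 0.14). Acadvl, Acadl and Acads had differences from control between -0.07 and 0.17 over the 3 shRNA groups.

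Of the hydratases, hydroxyacyl dehydrogenases and thiolases, Acaa1a passed. It encodes a thiolase of peroxisomes, which shorten very-long-chain fatty acids. Its log2 levels were 6.11, 6.25 and 6.13 in control, 6.36, 6.39 and 6.23 under LCN13, 6.0, 6.08 and 6.10 under TSC22D4 and 5.98, 6.01 and 5.86 under TSC22D4+LCN13. The arrays with both shRNAs were below those of LCN13 and below those of control, and the LCN13 and control arrays overlapped. The difference of both shRNAs from LCN13 was -0.38 on the log2 scale (SE 0.0577, interval -0.51 to -0.25, 1.3-fold lower, adjusted p = 0.0113). The call held whichever of the 12 arrays was left out. In a limma fit of the compared groups alone Acaa1a did not pass (adjusted p = 0.088), and neither did any other gene. Against control the values were 0.16 for LCN13 (adjusted p = 0.269), -0.11 for TSC22D4 (adjusted p = 0.653) and -0.22 for both (adjusted p = 0.0672). The level was low, and mice carry a close copy, Acaa1b, with a probe set of its own. Acaa1b had log2 levels of 5.14 to 5.38 and differed by 0.0479 between both shRNAs and LCN13 (adjusted p = 0.725). Whether the probes of either gene also read the other was not tested. In the same comparison of both shRNAs with LCN13, Adgre1 passed as higher, at 0.47 (adjusted p = 0.0472), where 1.32% of all genes passed as higher. The Adgre1 call was lost on leaving out any 1 of 11 arrays, all but TSC22D4+LCN13 animal 29 (adjusted p between 0.0551 and 0.116). The part of macrophages in the Acaa1a difference was not tested.

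The mitochondrial members of this role did not pass. Echs1, the short-chain enoyl-CoA hydratase, had log2 levels of 10.19, 10.25 and 10.36 in control, 10.02, 10.11 and 10.21 under LCN13, 10.64, 10.41 and 10.42 under TSC22D4 and 10.17, 10.19 and 10.04 under both. The 3 TSC22D4 arrays were above the other 9. Against control their difference was 0.22 (adjusted p = 0.366), and that of both shRNAs from TSC22D4 was -0.35 (SE 0.075, adjusted p = 0.229). Acaa2, the mitochondrial thiolase, was at 11.52, 11.65 and 11.74 in control and differed by 0.23 under LCN13 (adjusted p = 0.22), 0.19 under TSC22D4 (0.471) and 0.17 under both (0.251). Hadh, the short-chain hydroxyacyl dehydrogenase, differed from control by 0.0989, 0.15 and 0.10 in the same order. Hadha, a subunit of the trifunctional protein, ranged from 12.07 to 12.38 over the 12 arrays.

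The 3 auxiliary enzymes prepare unsaturated chains for the cycle. Decr1, the 2,4-dienoyl-CoA reductase, had log2 levels of 10.80, 10.95 and 10.95 in control, 10.97, 11.10 and 11.23 under LCN13, 10.90, 10.91 and 10.87 under TSC22D4 and 10.97, 10.91 and 10.83 under both. The LCN13 arrays were above every control array, by 0.20 in the mean (SE 0.0667, adjusted p = 0.228). The isomerases Eci1 and Eci2 differed by 0.18 (adjusted p = 0.465) and 0.19 (adjusted p = 0.396) in the same comparison. All 3 genes had their highest level in LCN13 animal 23.

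Electrons of the first step pass through the electron transfer flavoprotein, encoded by Etfa and Etfb, to its dehydrogenase, encoded by Etfdh. Etfa had log2 levels of 9.25, 9.51 and 9.41 in control, 9.35, 9.48 and 9.39 under LCN13, 9.47, 9.29 and 9.39 under TSC22D4 and 9.30, 9.30 and 9.26 under both. The arrays with both shRNAs lay below all LCN13 arrays, at -0.12 (SE 0.0664, adjusted p = 0.352). Etfb and Etfdh differed from control by between -0.0074 and 0.0963 in the 3 shRNA groups.

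Acot13, a thioesterase that frees fatty acids from acyl-CoA, had log2 levels of 10.25, 10.16 and 10.20 in control, 10.41, 10.18 and 10.38 under LCN13, 10.36, 10.29 and 10.39 under TSC22D4 and 10.44, 10.26 and 10.43 under both. The TSC22D4 and TSC22D4+LCN13 arrays were above all control arrays, by 0.15 (adjusted p = 0.544) and 0.17 (SE 0.066, adjusted p = 0.168).

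The 3 lipolysis genes act in order on stored triglyceride: Pnpla2 encodes adipose triglyceride lipase, Abhd5 its activator and Lipe hormone-sensitive lipase. None passed. Abhd5 had log2 levels of 9.74, 9.77 and 9.79 in control, 9.71, 9.47 and 9.66 under LCN13, 9.77, 9.67 and 9.72 under TSC22D4 and 9.80, 9.66 and 9.70 under both. The LCN13 arrays lay below the control arrays, at -0.15 (SE 0.0598, adjusted p = 0.328). Pnpla2 was below every control array in the TSC22D4 animals, with a difference of -0.14 (adjusted p = 0.67). Lipe was at 9.33, 9.23 and 9.33 in control and at 9.38, 10.14 and 9.15 under both shRNAs, a difference of 0.26 (SE 0.203, adjusted p = 0.532) that was -0.03 without animal 30. That animal had an adipocyte marker score of 0.93, against -0.39 to 0.12 on the other 11 arrays, and the mean log2 level of the 7 adipocyte markers was 9.99 there and at most 9.18 elsewhere. The same array had the highest macrophage marker score, 0.69, and the part of these cells in the Lipe level was not tested.

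Counts over the members were read against those over all genes. For TSC22D4 shRNA against control 0 of 31 members passed in limma, and 5 had an unadjusted p below 0.05, all higher. Among all 23185 genes 0.336% passed and 9.26% had such a p. The groups did not overlap for 6 members that were higher (19.4%) and 3 that were lower (9.68%), against 7.8% and 9.15% of all genes. The median difference of the members was 0.039 on the log2 scale, with 18 of 31 (58.1%) above 0. That of all genes was -0.00193, with 48.3% above 0. Without control animal 18 the median of the members was 0.015, and without TSC22D4 animal 27 it was 0.026. The largest differences were those of Cpt1a (0.26) and Echs1 (0.22) upwards and Acsl4 (-0.16) and Pnpla2 (-0.14) downwards, and none passed.

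For LCN13 shRNA against control 1 member of 31 passed, Cd36, where 0.85% of all genes passed, 0.237% higher and 0.612% lower. Without adjustment 8 members (25.8%) had a p below 0.05, 7 higher and 1 lower, against 12.4% of all genes. The 2 groups did not overlap for 6 higher members (19.4%) and 1 lower member (3.23%), against 9.74% and 9.02% of all genes. The median difference of the members was 0.091, with 23 of 31 (74.2%) above 0. That of all genes was 0.00136, with 51.2% above 0. Leaving out LCN13 animal 21, 22 or 23 gave medians of 0.142, 0.053 and 0.046, and leaving out control animal 18 gave 0.05. Of the 31 members, 15 had their highest group mean under LCN13 shRNA and 13 their lowest under control. These last counts were not taken over all genes, and members that move together are not independent.

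For TSC22D4+LCN13 shRNA against control 1 member passed, Cpt1a, where 4.34% of all genes passed, 1.72% higher and 2.62% lower. The share of members, 3.23%, was near that of all genes. Without adjustment 5 members (16.1%) had a p below 0.05, 3 higher and 2 lower, against 20.4% of all genes. The groups did not overlap for 5 higher members (16.1%) and 1 lower (3.23%), against 9.48% and 14.3% of all genes. The median difference was 0.019, with 18 of 31 (58.1%) above 0, beside -0.00505 for all genes, with 46.6% above 0. The median of the members was -0.025 without control animal 18, -0.004 without TSC22D4+LCN13 animal 30 and 0.059 without control animal 20. Against TSC22D4 shRNA 0 members passed in limma and 4 had an unadjusted p below 0.05, where 0% of all genes passed and 10.5% had such a p. Against LCN13 shRNA 1 member passed, Acaa1a, where 4.21% of all genes passed, 1.32% higher and 2.9% lower. In that comparison 5 members (16.1%) had an unadjusted p below 0.05, against 20.9% of all genes. For the interaction 0 members passed and 4 had an unadjusted p below 0.05, where 0.125% of all genes passed and 9.57% had such a p, and its median over members was -0.094 beside -0.0032 over all genes.

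**Figure D3:**
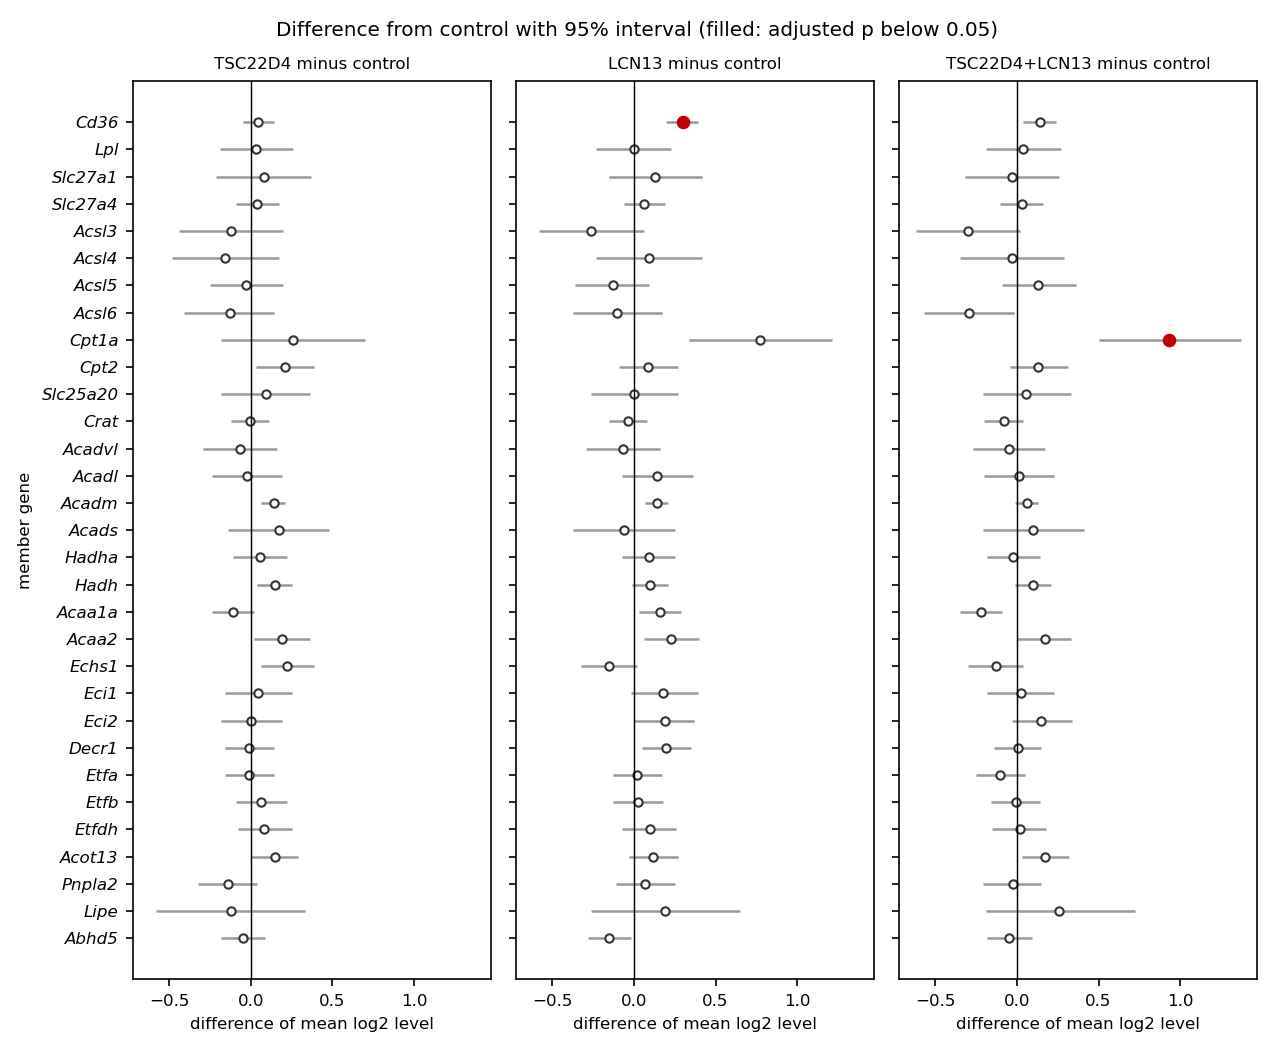
Difference of mean log2 level from control (horizontal axis) with its 95% interval for the 31 members (rows) under each of 3 shRNA treatments (panels), filled where the adjusted p was below 0.05. The 2 filled points are Cd36 under LCN13 at 0.30 and Cpt1a under TSC22D4+LCN13 at 0.93, and the 3 panels share the same control arrays.

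A p above the threshold does not show equal levels, so the intervals bound what these arrays leave possible. Among members that did not pass, the median margin of the 95% interval to either side was 0.179 on the log2 scale for TSC22D4 and for LCN13 against control and 0.173 for both. The interval lay within 0.5 on either side of 0 for 29 of 31 members under TSC22D4, 27 of 30 under LCN13 and 27 of 30 under both shRNAs. Among these, the interval of Cpt1a under LCN13 reached furthest from 0, to 1.21. The members varied more within groups than genes in general, with a median pooled SD of 0.105 against 0.0643. Their mean log2 level was 10 to 10.18 on the arrays, against an array median of 5.45. The SDs were not compared between genes of like level.

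Part of that spread was shared between genes and followed single animals. The mean deviation of the 14 genes of the mitochondrial cycle and electron transfer was -0.16, -0.019 and 0.0418 in control animals 18, 19 and 20, and -0.11, 0.094 and 0.13 in LCN13 animals 21, 22 and 23. It was 0.0672, -0.0044 and 0.0202 in TSC22D4 animals 25, 26 and 27, and 0.0016, 0.0011 and -0.0638 in TSC22D4+LCN13 animals 29, 30 and 32. All 14 genes were below their 12-array mean in control animal 18, and 12 of 14 in LCN13 animal 21, which was the lowest LCN13 array for all 14. The 3 arrays with the lowest score were thus control 18, LCN13 21 and TSC22D4+LCN13 32.

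Those 3 arrays also had the lowest scores for 8 slow fibre markers, -0.34 in control 18, -0.23 in LCN13 21 and -0.36 in TSC22D4+LCN13 32, while the other 9 lay between -0.11 and 0.32. Slow fibres are known to be richer in mitochondria and in fatty acid oxidation than fast glycolytic fibres. The score of 8 fast fibre markers lay between -0.0312 and 0.0342 on all 12 arrays. Their mean log2 levels, 13.69 to 13.75, were close to the highest value of the table, 14.09, where differences may be compressed. A narrow range of this score therefore does not show a steady share of fast fibres. Tendon markers scored -0.95 and -1.06 in control animals 18 and 20 and -0.37 in TSC22D4 animal 25, against 0.049 to 0.48 on the other 9. Whether the share of slow fibres or of tendon in the sample bears on the members' levels was not tested.

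**Figure D4:**
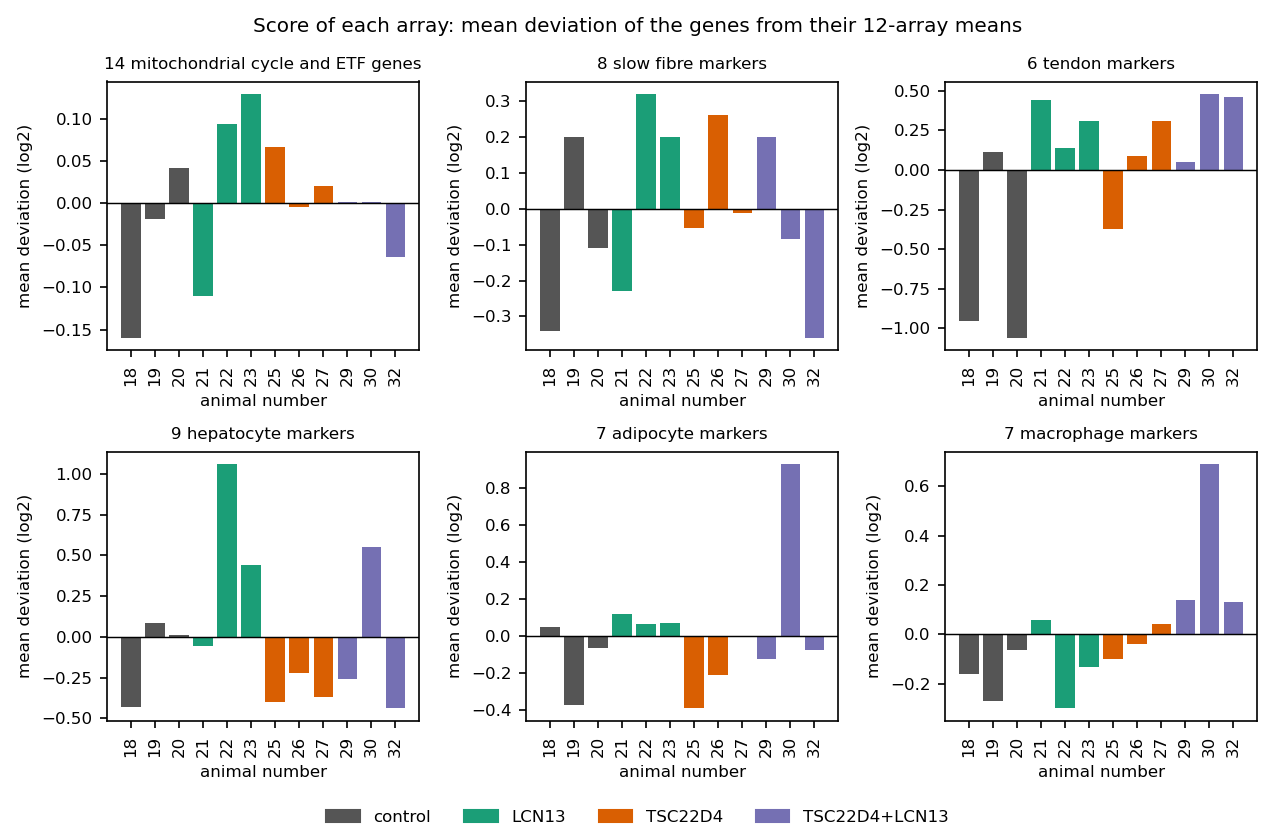
Mean deviation in log2 units of 14 mitochondrial cycle and electron transfer (ETF) genes and of 5 marker lists from their 12-array means (vertical axes, each panel with its own range), with 1 bar for each animal coloured by shRNA group. The 14 genes are lowest in control animal 18 at -0.16, LCN13 animal 21 at -0.11 and TSC22D4+LCN13 animal 32 at -0.0638, the 3 animals with the lowest slow fibre score.

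Other genes of fatty acid handling, 43 measured of 47 listed, gave a like picture of few calls past the adjusted threshold. Acot2, a mitochondrial acyl-CoA thioesterase, was the single gene of this list that passed for LCN13 against control, with log2 levels of 10.26, 9.80 and 10.27 in control and 10.67, 11.11 and 11.08 under LCN13. The groups did not overlap, and the difference was 0.84 (SE 0.151, adjusted p = 0.0386), but leaving out 1 array ended the call for 10 of the 12 arrays, all except LCN13 animal 21 and TSC22D4+LCN13 animal 30 (adjusted p between 0.0512 and 0.11, difference between 0.69 and 0.92). Its neighbour Acot1 is a close copy with a probe set of its own. Acot1 had log2 levels of 4.94 to 5.1 and differed by 0.0283 in the same comparison (adjusted p = 0.909). Whether the probes of either gene also read the other was not tested. For TSC22D4 against control, both against control and both against TSC22D4, 0 genes of the list passed in limma, with 4, 12 and 6 of 43 at an unadjusted p below 0.05. The shares of all genes at such a p were 9.26%, 20.4% and 10.5%. For LCN13 against control 11 of 43 had such a p, 5 higher and 6 lower, against 12.4% of all genes. In that comparison 0.85% of all genes passed, 0.237% as higher.

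For both shRNAs against LCN13, 1 gene of the list passed as higher and 1 as lower, where 1.32% and 2.9% of all genes did. An unadjusted p below 0.05 was found for 8 of 43, against 20.9% of all genes. Mlycd, malonyl-CoA decarboxylase, which removes the inhibitor of carnitine palmitoyltransferase 1, had log2 levels of 9.06, 9.01 and 9.03 under LCN13 and 8.67, 8.70 and 8.64 under both. The gene fell by 0.37 in log2 level (SE 0.0568, adjusted p = 0.0114), and the call held whichever of the 12 arrays was left out. In a limma fit of the compared groups alone Mlycd did not pass (adjusted p = 0.0715), and neither did any other gene. Against control, with levels of 8.85, 8.65 and 8.92, Mlycd was at 0.23 under LCN13 (adjusted p = 0.116) and at -0.14 under both (adjusted p = 0.201). Plin3, a lipid droplet coat protein, rose by 0.68 (SE 0.148, adjusted p = 0.0359), from 7.63, 7.70 and 8.0 under LCN13 to 8.60, 8.45 and 8.33 under both. Its control levels were 7.97, 8.40 and 8.52, and leaving out 1 array ended the call for 7 of 12. These were LCN13 animals 21 and 22, TSC22D4 animals 25 and 27 and the 3 animals with both viruses (adjusted p between 0.0515 and 0.109).

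Of the regulators and reporter targets of PPAR and ERR, 15 measured of 17 listed, none rose past the threshold in any comparison. As lower, 1 passed for LCN13 against control and 2 for both against control, where 0.612% and 2.62% of all genes did. Klf15, a transcription factor induced by fasting and glucocorticoids, had log2 levels of 7.61, 7.65 and 7.67 in control, 6.70, 7.13 and 7.06 under LCN13, 7.31, 7.22 and 7.38 under TSC22D4 and 7.25, 7.0 and 7.13 under both. All 9 arrays of animals given a target virus were below the 3 control arrays. Klf15 fell by 0.68 under LCN13 (SE 0.104, adjusted p = 0.022) and by 0.52 under both (adjusted p = 0.0272), and leaving out any 1 control array ended both calls (adjusted p between 0.0542 and 0.0893). The second was also lost without TSC22D4+LCN13 animal 30 (0.0625) or 32 (0.0712). Rxra, the partner of PPAR receptors, fell by 0.33 under both shRNAs (SE 0.0652, adjusted p = 0.0242), a call lost without control animal 18 (adjusted p = 0.0741) or 20 (0.0831). Its log2 levels were 10.76, 10.62 and 10.72 in control and 10.45, 10.23 and 10.43 under both.

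Targets that commonly report PPAR activity did not pass. Pdk4, the kinase that switches off pyruvate dehydrogenase, differed from control by 0.38 under LCN13 (adjusted p = 0.311), 0.15 under TSC22D4 (0.859) and 0.44 under both (0.122). Angptl4, an inhibitor of lipoprotein lipase, was at 8.24, 6.59 and 7.39 in control and at 7.89, 9.05 and 8.61 under both, a difference of 1.11 (SE 0.387, adjusted p = 0.139) between overlapping groups. Ucp3, a mitochondrial carrier induced by fatty acids, was between 9.98 and 10.07 on the 3 arrays with both shRNAs and at 9.88, 8.78 and 9.40 in control, and its difference of 0.66 did not pass (adjusted p = 0.111). Ppargc1a, which encodes PGC-1alpha, had log2 levels of 10.26, 10.38 and 10.42 in control and of 10.87, 10.93 and 11.04 under LCN13. Each of the 3 groups given a target virus lay above control for this gene, by 0.59 under LCN13 (adjusted p = 0.0932), 0.34 under TSC22D4 (0.481) and 0.44 under both (0.105).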

How the data were processed

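RNA from gastrocnemius was labelled with biotin and read on Affymetrix arrays of 1 colour, per the labels' protocols. The deposited values are log2 levels that the authors obtained by RMA, per the submitters' processing notes. RMA equalises the distributions of the arrays, so a shift of most transcripts would not be visible. The sources used here give no version of it, no definition of the probe sets and no build. Of 25206 probe sets, 23185 carried 1 gene symbol in the annotation supplied with the arrays. The other 2021 (8.02%) entered 1 alternative alone.

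The 4 group means were fitted over all 12 arrays in R 4.3.3 with limma 3.58.1 (functions lmFit and eBayes, with 8 residual and 1.69 prior degrees of freedom). Tests were two-sided, adjusted by Benjamini-Hochberg over 23185 genes in each of 6 comparisons, with a threshold of 0.05. No pseudocount or filter was used. The members, their roles and the other lists were chosen with earlier results of these data known, so list counts and medians are given without a test. Every array is given for members that passed and for the member of each role with the smallest p, and the 2 largest differences each way are given per comparison. Of the other lists the genes that passed are named, with Pdk4, Angptl4, Ucp3 and Ppargc1a added after their values were seen. The steps were checked on simulated data. The number of arrays limits the precision, and no batch or date is given in the sources used here. The fits were repeated with every probe set, with averaged probe sets, with the genes above the median level and with the trend and robust options of eBayes. They were also repeated after quantile normalization, after centring, with array weights, with the compared groups alone and without each array in turn. Each named gene had a single probe set, so averaging could change nothing. The arrays already shared a median of 5.45, so quantile normalization and centring could change little. Unchanged results under these settings are therefore no support.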

Additional observations from a re-analysis of the deposited data

How the results depend on the processing

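The counts of members that passed were small and turned on single arrays. For LCN13 against control the count was 1, it was 2 among genes above the median level and with array weights, where Cpt1a also passed, 0 with the compared groups alone, and 0 to 1 over the 12 fits that left out 1 array. For TSC22D4+LCN13 against control it was 0 with the compared groups alone and 0 to 1 with 1 array left out. For TSC22D4+LCN13 against LCN13 it was 0 with the compared groups alone and 1 to 2 with 1 array left out. A fit of 6 arrays has fewer residual degrees of freedom. The other 3 counts were 0 under every alternative run. The median interaction of the members ranged from -0.175, without LCN13 animal 21, to -0.064 with 1 array left out, and the other medians moved by less than the spread between arrays. The median for TSC22D4+LCN13 against control lay between -0.025 and 0.059. The Lipe difference of TSC22D4+LCN13 from control reversed to -0.03 (adjusted p = 0.891) without TSC22D4+LCN13 animal 30 and reached 0.47 without another array; the cause was not tested. The interaction was not run on the compared groups alone, since it needs all 4 groups. Among all genes the counts that passed also moved: with the compared groups alone they were 33 rather than 78 for TSC22D4, 18 rather than 197 for LCN13 and 124 rather than 1007 for TSC22D4+LCN13 against control, and 0 rather than 977 for TSC22D4+LCN13 against LCN13. With array weights they were 177, 340, 785 and 543 in the same order, and the interaction had 51 rather than 29 among genes above the median level. With 1 array left out they lay between 36 and 105, 77 and 280, 334 and 1106, and 318 and 1320, with 3 to 50 for the interaction and 0 to 2 for TSC22D4+LCN13 against TSC22D4. No paired analysis was possible because the animal numbers differ between groups. Levels near the low end of the table have no detection call here.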
